A study of Mus musculus with 12 samples.

Results

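The 10 genes described here carry the sensing of lipopolysaccharide (LPS), the endotoxin of Gram-negative bacteria, from its binding proteins to the first adaptors inside the cell. They were chosen by name, as Tlr4, Cd14, Ly96, Lbp, Tlr2, Myd88, Irak3, Ticam1, Ticam2 and Tirap, and all 10 were found among the 52550 genes of the deposited count table. In this pathway the serum protein Lbp extracts LPS from bacterial membranes and hands it to Cd14, which passes it to the receptor Tlr4 in complex with Ly96 (MD-2). The bound receptor signals from the cell surface through the adaptors Tirap and Myd88, a route that leads to NF-kappa B and to inflammatory cytokines. After uptake it signals from endosomes through Ticam2 (TRAM) and Ticam1 (TRIF), a route that leads to interferon regulatory factors. Irak3 (IRAK-M) is an inhibitor of the kinase complex that forms on Myd88, and Tlr2 is a related receptor for bacterial lipoproteins that also uses Tirap and Myd88. In the lung these genes are used by resident macrophages, by incoming neutrophils and monocytes, and to a lesser degree by epithelium and endothelium.

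The data are bulk RNA sequencing libraries of whole lung from 12 mice of the strain C57Bl/6J on postnatal day 5. Each library is 1 mouse, and the mice form 4 groups of 3. WT mice (Adm+/+) carry both copies of Adm, the gene of the peptide hormone adrenomedullin, and Adm+/- mice carry 1 functional copy in all of their tissues. Mice of each genotype were injected intraperitoneally once a day, for 3 doses from postnatal day 3, with PBS or with LPS of Escherichia coli O55:B5 at 6 mg/kg. Sampling followed the last dose by 6 h, so every LPS lung had met LPS repeatedly before it was sampled. The libraries keep their numbers from the labels, which are replicates 3, 4 and 5 for WT PBS, 9, 10 and 11 for WT LPS, 6, 7 and 8 for Adm+/- PBS, and 1, 2 and 12 for Adm+/- LPS. The comparisons ask how the sensing genes respond to LPS in each genotype and whether the genotypes differ.

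The libraries held between 22382535 and 38062873 counts (median 28494877). Levels are given as CPM, the counts of a gene scaled to a common library size with TMM normalization. The targeted gene Adm was low throughout, and its genotypes overlapped, with 3.96 to 7.09 CPM in WT PBS against 2.87 to 4.58 CPM in Adm+/- PBS, and 4.46 to 8.15 CPM in WT LPS against 3.74 to 6.28 CPM in Adm+/- LPS. On the log2 scale Adm+/- minus WT was −0.50 in PBS (adjusted p = 0.999 in edgeR) and −0.55 in LPS (adjusted p = 0.48 in edgeR), so the counts do not by themselves separate the genotypes. Lung markers were present in all libraries, with 13400 to 17100 CPM summed over 8 type II pneumocyte markers. WT PBS replicate 5 and Adm+/- PBS replicate 6 stood apart, in which protein-coding genes took 77.8% and 80.1% of the counts, compared with 84.3% to 87.6% elsewhere. The share of Gm26917, a gene that is not protein-coding, was 16.6% and 13.3% there and between 5.42% and 7.4% in the remaining libraries, and 7 fibroblast markers summed to 43300 and 27600 CPM against 14300 to 15700 CPM in the other PBS lungs. Results that change without them are given both ways.

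All 10 genes passed edgeR's filter on low counts and were tested among 15885 protein-coding genes. A gene was counted as higher or lower at an adjusted p below 0.05 in edgeR's quasi-likelihood test, with an absolute log2 fold change above 0.5. In WT mice 7 of the 10 genes rose and 0 fell, where 10.5% of all genes tested rose. The genes that rose were Irak3, Cd14, Tlr2, Ly96, Lbp, Myd88 and Tirap, and the median log2 change of the 10 genes was 1.13 against 0.01 over all genes tested. The WT count was 4 with edgeR's glmTreat, a test against the fold threshold itself, and 4 in a fit of only the 6 WT libraries, where Ly96, Myd88 and Tirap did not pass. The LPS and PBS libraries did not overlap for any of the 10 genes, all of which were higher in LPS, where 18.3% of all genes tested were higher without overlap. In Adm+/- mice the same 7 genes rose and 0 fell, where 12.8% of all genes tested rose. The median over the 10 genes was 1.47 there against −0.01 over all genes, and 9 of the 10 did not overlap and were higher, where 26.6% of all genes tested did so. Tlr4 itself, Ticam1 and Ticam2 did not pass the threshold in either genotype. The size of the change differed widely between members, from a log2 value of 0.22 for Ticam1 to 3.18 for Irak3 in WT mice, and from −0.45 for Ticam2 to 4.65 for Cd14 in Adm+/- mice.

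**Figure D1:**
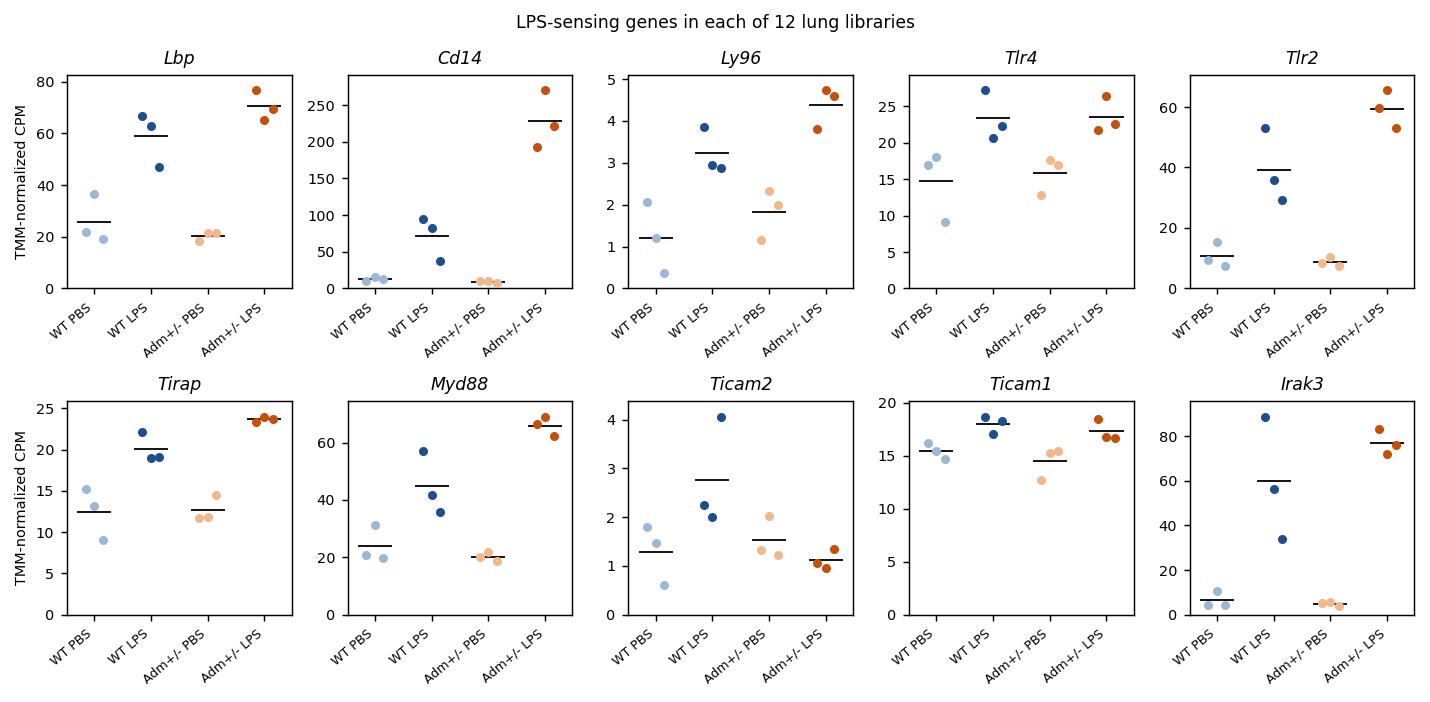
TMM-normalized CPM (vertical axes, linear and starting at 0, a separate scale for each gene) of the 10 LPS-sensing genes in the 12 libraries, by group, with 1 point per mouse and a bar at the group mean. Cd14 sits between 193 and 270 CPM in Adm+/- LPS and between 36.8 and 94.1 CPM in WT LPS, while Tlr4 covers 20.7 to 27.2 CPM over both LPS groups.

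Lbp and Cd14 deliver LPS to the receptor, and both rose. Lbp (ENSMUSG00000016024) lies on chromosome 2 of mm10, from 158306493 to 158332852 on the plus strand. Its libraries had 21.7, 36.5 and 19.0 CPM in WT PBS and 66.9, 63.0 and 47.0 CPM in WT LPS. In Adm+/- mice they had 18.3, 21.4 and 21.5 CPM in PBS and 76.7, 65.3 and 69.6 CPM in LPS. Every LPS library was above every PBS library, and WT PBS replicate 4 was the highest of the PBS lungs. Lbp, an acute-phase protein made chiefly by liver and also by lung epithelium, thus rose with a log2 change of 1.20 in WT mice (SE 0.22, adjusted p = 0.0037 in edgeR) and of 1.79 in Adm+/- mice (SE 0.22, adjusted p = 0.000209 in edgeR).

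Cd14 (ENSMUSG00000051439), the co-receptor on monocytes, macrophages and neutrophils, is a compact gene with 1 merged exon on chromosome 18, from 36725067 to 36726798 on the minus strand. Its level in WT lungs was 9.86, 15.8 and 13.1 CPM with PBS against 94.1, 82.3 and 36.8 CPM with LPS. Adm+/- lungs had 9.68, 10.1 and 7.47 CPM with PBS against 193, 270 and 222 CPM with LPS. The PBS groups overlapped, WT LPS replicate 11 was the lowest of the LPS lungs, and all 3 Adm+/- LPS lungs lay above all 3 WT LPS lungs. The rise was 2.46 on the log2 scale in WT mice (SE 0.31, adjusted p = 0.000545 in edgeR) and 4.65 in Adm+/- mice (SE 0.34, adjusted p = 4.02e-05 in edgeR), which is 5.51-fold and 25.1-fold. In Adm+/- mice Cd14 ranked 7 among all genes tested by p.

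Tlr4 and Ly96 form the receptor itself. Tlr4 (ENSMUSG00000039005) lies on chromosome 4, from 66827584 to 66930284 on the plus strand, and Ly96 (ENSMUSG00000025779) on chromosome 1, from 16688051 to 16709611 on the plus strand. Tlr4 had 17, 18 and 9.14 CPM in WT PBS, 27.2, 20.7 and 22.3 CPM in WT LPS, 12.8, 17.7 and 16.9 CPM in Adm+/- PBS, and 21.7, 26.4 and 22.6 CPM in Adm+/- LPS. The LPS libraries were above the PBS libraries within both genotypes, and WT PBS replicate 5 and Adm+/- PBS replicate 6, which stood apart, were the lowest of their groups. The same 2 libraries were the lowest of their groups for Ly96, and the part of their different make-up in these values was not tested. The log2 change of Tlr4 was 0.67 in WT mice (SE 0.23, adjusted p = 0.058 in edgeR) and 0.57 in Adm+/- mice (SE 0.23, adjusted p = 0.0783 in edgeR), neither past the threshold. It passed in both genotypes with DESeq2 (adjusted p = 0.023 in WT and 0.0428 in Adm+/- mice), and limma-voom put the WT value past it (adjusted p = 0.0473). In edgeR the WT value passed when WT PBS replicate 4 was left out (adjusted p = 0.0442), and the Adm+/- value passed when only its 6 libraries were fitted (adjusted p = 0.0151) or WT PBS replicate 5 was left out (adjusted p = 0.011). Leaving out both PBS libraries that stood apart gave log2 changes of 0.42 in WT (adjusted p = 0.0522 in edgeR) and 0.44 in Adm+/- mice (adjusted p = 0.0299 in edgeR), both under the fold threshold.

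Ly96, the small secreted protein that holds LPS in the receptor, was measured on few reads, with 6 to 129 counts per library. Its libraries had 2.06, 1.21 and 0.371 CPM in WT PBS, 3.85, 2.95 and 2.87 CPM in WT LPS, 1.16, 2.33 and 1.99 CPM in Adm+/- PBS, and 3.81, 4.73 and 4.60 CPM in Adm+/- LPS. The treatments did not overlap within either genotype, and the spread among the PBS lungs was wide. Ly96 rose with a log2 change of 1.35 in WT mice (SE 0.42, adjusted p = 0.0411 in edgeR) and of 1.24 in Adm+/- mice (SE 0.40, adjusted p = 0.0365 in edgeR). These calls were near the threshold. With single libraries left out the log2 change covered 0.97 to 1.98 in WT and 1.02 to 1.46 in Adm+/- mice. The WT call was lost when 10 of the 12 libraries were left out in turn, with adjusted p of up to 0.144 (edgeR, without WT LPS replicate 9), and the Adm+/- call when 5 were, with up to 0.118 (edgeR, without Adm+/- PBS replicate 6). Both calls were lost with glmTreat (adjusted p = 0.164 in WT and 0.142 in Adm+/- mice), and the WT call in a fit of only the 6 WT libraries (adjusted p = 0.139 in edgeR).

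Tlr2 (ENSMUSG00000027995) lies on chromosome 3, from 83836272 to 83841767 on the minus strand. Its libraries had 9.44, 15.4 and 7.29 CPM in WT PBS and 52.9, 35.8 and 29.2 CPM in WT LPS, and 8.47, 10.4 and 7.55 CPM in Adm+/- PBS and 59.6, 65.5 and 52.9 CPM in Adm+/- LPS. Every LPS lung exceeded every PBS lung, and the LPS groups of the genotypes met at their edge. Tlr2 rose with a log2 change of 1.87 in WT mice (SE 0.28, adjusted p = 0.00114 in edgeR) and of 2.75 in Adm+/- mice (SE 0.28, adjusted p = 8.79e-05 in edgeR).

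Promoters are shown for Tlr2, Irak3 and Myd88, which rose, and for Ticam1, which did not pass the threshold. Their responses contrast most among the 5 members whose promoters were searched. The other members, Cd14 and Ticam2 among them, were not searched. Windows of 300 bases ran from 250 before to 50 after a RefSeq transcription start (build GRCm38.p6). They were taken for 5 of the 10 members, which were Tlr2, Myd88, Irak3, Ticam1 and Tirap, with 7 windows in all. Each was searched on both strands for the kappa B motif, the interferon-stimulated response element, the AP-1 motif (TGANTCA) and the STAT motif (TTCNNNGAA), and matches stand in capitals. All sequences read 5′ to 3′ on the strand of the gene, which is the minus strand for each. They cover chr3:83841559-83841858 for Tlr2, chr9:119339969-119340268 for Myd88, chr10:120202081-120202380 for Irak3 and chr17:56276718-56277017 for Ticam1.
Tlr2: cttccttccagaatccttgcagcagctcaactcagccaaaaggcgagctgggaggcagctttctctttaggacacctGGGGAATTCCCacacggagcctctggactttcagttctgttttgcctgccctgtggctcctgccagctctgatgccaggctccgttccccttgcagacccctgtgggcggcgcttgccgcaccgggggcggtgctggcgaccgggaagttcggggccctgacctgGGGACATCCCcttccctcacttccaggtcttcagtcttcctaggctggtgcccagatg
Myd88: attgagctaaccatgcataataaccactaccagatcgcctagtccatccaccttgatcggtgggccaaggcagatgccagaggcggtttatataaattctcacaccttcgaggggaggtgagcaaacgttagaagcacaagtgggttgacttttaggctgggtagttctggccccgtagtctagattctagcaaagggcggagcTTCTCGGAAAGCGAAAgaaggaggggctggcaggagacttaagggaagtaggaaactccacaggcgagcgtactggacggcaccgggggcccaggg
Irak3: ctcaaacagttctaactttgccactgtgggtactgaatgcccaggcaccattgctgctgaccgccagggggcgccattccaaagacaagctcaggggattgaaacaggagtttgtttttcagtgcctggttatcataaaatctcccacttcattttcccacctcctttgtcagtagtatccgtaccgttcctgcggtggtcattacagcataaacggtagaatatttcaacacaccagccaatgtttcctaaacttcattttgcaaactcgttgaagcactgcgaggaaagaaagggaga
Ticam1: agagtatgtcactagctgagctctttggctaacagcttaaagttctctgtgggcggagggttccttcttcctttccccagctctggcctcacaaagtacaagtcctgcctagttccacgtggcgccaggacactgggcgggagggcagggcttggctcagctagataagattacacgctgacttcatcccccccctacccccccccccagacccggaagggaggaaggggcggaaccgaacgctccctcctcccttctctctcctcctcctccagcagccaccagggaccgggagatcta

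The Tlr2 window held 3 kappa B matches, of which 2 overlap each other, starting 173 and 172 bases before the start site, and the last began 8 bases before it. The Myd88 window held 1 interferon-stimulated response element, beginning 40 bases before the start site, and 1 STAT match that overlaps it, beginning 46 bases before. The start used for Myd88 lies 1393 bases inside the Gencode gene, so that window is internal to the annotated gene, whereas the Irak3 window sits at the Gencode start. The windows of Irak3 (both starts), Ticam1 and Tirap (both starts) held no match to these letters. Over all 32817 promoter windows of the same length, 8.46% held a kappa B match, 3.43% an interferon-stimulated response element, 7.81% an AP-1 match and 8.29% a STAT match. These matches describe the sequence only, and no binding was measured.

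Myd88 and Tirap, the adaptors of the cell surface route, rose in both genotypes. Myd88 (ENSMUSG00000032508, chromosome 9, from 119335934 to 119341411, minus strand) had 20.9, 31.3 and 19.8 CPM in WT PBS, 57.2, 41.8 and 35.9 CPM in WT LPS, 20.1, 21.9 and 18.6 CPM in Adm+/- PBS, and 66.3, 69.0 and 62.4 CPM in Adm+/- LPS. The treatments did not overlap, and the Adm+/- LPS lungs all lay above the WT LPS lungs. Myd88, the adaptor that nearly all Toll-like receptors share, rose with a log2 change of 0.91 in WT mice (SE 0.19, adjusted p = 0.00793 in edgeR) and of 1.70 in Adm+/- mice (SE 0.20, adjusted p = 0.000143 in edgeR). The WT call was lost with edgeR's glmTreat (adjusted p = 0.0954) and in a fit of only the 6 WT libraries (adjusted p = 0.0662 in edgeR). Its exons share 290 bases, 11.3% of their length, with Acaa1a on the opposite strand. The strand option of the counting is not given in the sources used here, so reads from that stretch cannot be told apart.

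Tirap (ENSMUSG00000032041, chromosome 9, from 35184551 to 35200291, minus strand) bridges the receptor to Myd88. It had 15.2, 13.2 and 9.02 CPM in WT PBS, 22.1, 19.0 and 19.1 CPM in WT LPS, 11.7, 11.9 and 14.5 CPM in Adm+/- PBS, and 23.3, 24.0 and 23.7 CPM in Adm+/- LPS. The Adm+/- LPS lungs were closely grouped and above the WT LPS lungs. The rise was 0.68 on the log2 scale in WT mice (SE 0.17, adjusted p = 0.0182 in edgeR) and 0.90 in Adm+/- mice (SE 0.17, adjusted p = 0.0027 in edgeR). Without the 2 PBS libraries that stood apart the WT value was 0.50, which no longer passed the fold threshold (adjusted p = 0.021 in edgeR). Leaving out WT PBS replicate 5 alone did the same (0.50, adjusted p = 0.0272 in edgeR). The WT call was also lost without WT LPS replicate 9 (0.61, adjusted p = 0.079 in edgeR), with glmTreat (adjusted p = 0.35) and in a fit of only the 6 WT libraries (adjusted p = 0.106 in edgeR). Of its exons, 446 bases (9.05%) are shared with Gm39318 and 39 bases with Srpr, both on the opposite strand.

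Ticam1 and Ticam2, the adaptors of the endosomal route, did not pass the threshold. Ticam1 (ENSMUSG00000047123, chromosome 17, from 56269319 to 56276786, minus strand) had 16.2, 15.5 and 14.7 CPM in WT PBS, 18.7, 17.1 and 18.3 CPM in WT LPS, 12.7, 15.3 and 15.5 CPM in Adm+/- PBS, and 18.5, 16.8 and 16.7 CPM in Adm+/- LPS. The LPS lungs were slightly above the PBS lungs in each genotype. Its log2 change was 0.22 in WT mice (SE 0.12, adjusted p = 0.199 in edgeR) and 0.26 in Adm+/- mice (SE 0.12, adjusted p = 0.119 in edgeR), the smallest positive changes among the members.

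Ticam2 (ENSMUSG00000056130, chromosome 18, from 46557291 to 46574533, minus strand) was measured on 10 to 102 counts per library. It had 1.79, 1.46 and 0.618 CPM in WT PBS, 2.25, 2 and 4.06 CPM in WT LPS, 1.32, 2.03 and 1.23 CPM in Adm+/- PBS, and 1.05, 0.964 and 1.35 CPM in Adm+/- LPS. WT LPS replicate 11 was the highest library, the WT treatments did not overlap, and the Adm+/- treatments did. The log2 change was 1.07 in WT mice (SE 0.39, adjusted p = 0.0683 in edgeR) and −0.45 in Adm+/- mice (SE 0.39, adjusted p = 0.421 in edgeR). The WT value passed with DESeq2 (adjusted p = 0.0375) and without WT PBS replicate 3 (adjusted p = 0.0476 in edgeR). Ticam2 shares 838 exonic bases, 14.5% of its exon length, with Tmed7 on the same strand, so its counts are uncertain whatever the strand setting.

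Irak3 (ENSMUSG00000020227), the inhibitor, lies on chromosome 10, from 120141648 to 120202130 on the minus strand. Its libraries had 4.43, 10.7 and 4.57 CPM in WT PBS and 88.7, 56.3 and 34 CPM in WT LPS. In Adm+/- mice they had 5.37, 5.57 and 3.86 CPM in PBS and 83.2, 72.1 and 76.1 CPM in LPS. The treatments were far apart in both genotypes, and the 3 WT LPS lungs spread over a range that held all of the Adm+/- LPS lungs. Irak3, known for its rise in macrophages that have met LPS before, increased with a log2 change of 3.18 in WT mice (SE 0.39, adjusted p = 0.000442 in edgeR) and of 3.97 in Adm+/- mice (SE 0.40, adjusted p = 8.02e-05 in edgeR). That is 9.09-fold and 15.6-fold. It was the member with the largest fitted change in WT mice and was second to Cd14 in Adm+/- mice. Its exons share 192 bases, 5.22% of their length, with Tmbim4 on the opposite strand.

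**Figure D2:**
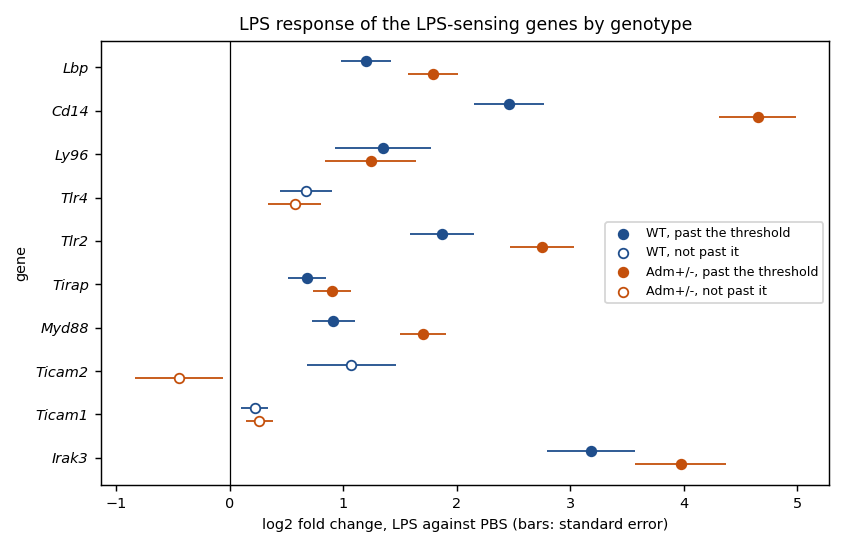
Fitted log2 fold change of LPS against PBS (horizontal axis) for the 10 genes (vertical axis) in WT and Adm+/- mice, with bars of 1 standard error and filled points for genes past the threshold. Cd14 stands at 2.46 and 4.65, Tlr4 at 0.67 and 0.57, and Ticam2 at 1.07 and −0.45.

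The genotypes were then compared directly. In PBS 0 of the 10 genes differed between Adm+/- and WT mice in edgeR, where 0% of all genes tested passed the threshold. None of the 10 reached an unadjusted p below 0.05, against 344 of all genes tested, DESeq2 and limma-voom also called 0 of the 10, and the libraries of the genotypes overlapped for every member, where 4.99% of all genes tested did not overlap. Their log2 differences lay between −0.50 for Cd14 and 0.55 for Ly96. The Ly96 value was 0.17 without WT PBS replicate 5, 0.33 without Adm+/- PBS replicate 7 and 1.17 without WT PBS replicate 3. The 2 PBS libraries that stood apart, 1 in each genotype, enter these values. So does WT PBS replicate 4, the highest PBS lung for Cd14, Lbp, Tlr2, Myd88 and Irak3. Without replicate 4 the log2 difference went from −0.33 to 0 for Lbp, from −0.28 to 0.07 for Tlr2 and from −0.41 to 0.13 for Irak3.

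In LPS 1 of the 10 genes differed between the genotypes, where 2.05% of all genes tested differed and 0.327% were higher in Adm+/- mice. It was Cd14, which was 3.21-fold higher in Adm+/- mice (log2 difference 1.68, SE 0.30, adjusted p = 0.0159 in edgeR), on 71.1 ± 30.2 CPM in WT and 228 ± 38.8 CPM in Adm+/- mice (SD, n = 3 each). The call was lost without Adm+/- LPS replicate 2 (1.55, adjusted p = 0.0811 in edgeR), without replicate 12 (1.70, adjusted p = 0.0637 in edgeR) and in a fit of only the 6 LPS libraries (1.68, adjusted p = 0.0544 in edgeR). Of the other members, Myd88 and Tirap were higher without overlap in Adm+/- LPS lungs, with log2 differences of 0.55 (adjusted p = 0.188 in edgeR) and 0.24 (adjusted p = 0.636 in edgeR). Ticam2 was lower without overlap, with a log2 difference of −1.29 (adjusted p = 0.114 in edgeR). DESeq2 called Ticam2 lower (adjusted p = 0.0339). The 4 genes without overlap compare with 24.6% of all genes tested. Tlr4 differed by 0.01 (SE 0.23, adjusted p = 0.997 in edgeR), Ly96 by 0.44 (SE 0.39, adjusted p = 0.736 in edgeR) and Irak3 by 0.37 (SE 0.35, adjusted p = 0.758 in edgeR). The Irak3 value was 0.09 without WT LPS replicate 11 and 0.77 without WT LPS replicate 9.

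The difference between the genotypes in the LPS response, tested as an interaction, passed the threshold in edgeR for 0 of the 10 genes, where 0.145% of all genes tested passed. At an unadjusted p below 0.05 there were 4 of 10, namely Cd14, Myd88, Ticam2 and Tlr2, against 7.85% of all genes tested. Cd14 had the largest difference, 2.19 on the log2 scale (SE 0.43, adjusted p = 0.106 in edgeR). Limma-voom called 0 of the 10. DESeq2 put Cd14 past the threshold (2.20, adjusted p = 0.000176), and so did edgeR without WT LPS replicate 11 (1.88, adjusted p = 0.0376), the WT LPS lung with the lowest Cd14. Myd88 differed by 0.80 (SE 0.27, adjusted p = 0.455 in edgeR), Tlr2 by 0.87 (SE 0.38, adjusted p = 0.602 in edgeR) and Ticam2 by −1.52 (SE 0.55, adjusted p = 0.49 in edgeR). For Tlr4 the difference was −0.10 (SE 0.32, adjusted p = 0.996 in edgeR). The 5 contrasts share libraries, so their values are given side by side and are not independent of each other.

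Ratios of a pair of members within a library do not move with the scaling between libraries, and 6 were tested. The log2 Cd14 to Tlr4 ratio was −0.78, −0.18 and 0.51 in WT PBS, 1.79, 1.99 and 0.72 in WT LPS, −0.40, −0.80 and −1.17 in Adm+/- PBS, and 3.15, 3.35 and 3.29 in Adm+/- LPS. The ratio lay above 0 in all LPS lungs, below 0 in all Adm+/- PBS lungs (mean −0.79) and on both sides of 0 in WT PBS lungs (mean −0.15), and it is a ratio of CPM, not of levels per length. All 6 ratios changed with LPS in an exact two-sided permutation test over 400 assignments of treatment within genotype, adjusted over the 6. The log2 change averaged over both genotypes was 2.85 for Cd14 to Tlr4, 1.67 for Tlr2 to Tlr4, 0.79 for Ly96 to Tlr4, −1.99 for Lbp to Cd14 and 2.27 for Irak3 to Myd88, each with an adjusted p of 0.006 in that exact test, from a raw p of 0.005 that is the smallest it can give. For Myd88 to Ticam1, the shared adaptor against the endosomal one, the change was 1.07 (exact permutation p = 0.01, adjusted p = 0.01).

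In the same kind of exact permutation test, the response of 2 of these ratios differed between the genotypes at an adjusted p below 0.05. Genotype was permuted within treatment, with adjustment over the 6 ratios. That permutation takes genotype to have no effect in PBS or in LPS, so it does not test the response alone. The log2 Cd14 to Tlr4 ratio rose by 1.65 in WT and by 4.05 in Adm+/- mice, a difference of 2.41 (exact p = 0.01, adjusted p = 0.045) that includes the lower ratio of the Adm+/- PBS lungs. Tlr2 to Tlr4 rose by 1.17 and 2.17, a difference of 0.99 (exact p = 0.015, adjusted p = 0.045). Lbp to Cd14 differed by −1.72 (exact p = 0.03, adjusted p = 0.06) and Myd88 to Ticam1 by 0.75 (exact p = 0.06, adjusted p = 0.09). Irak3 to Myd88 changed by 2.28 in WT and 2.26 in Adm+/- mice (difference −0.02, exact p = 0.97), and Ly96 to Tlr4 differed by −0.19 (exact p = 0.73). Without the 2 PBS libraries that stood apart the differences were 2.27 for Cd14 to Tlr4 and 1.05 for Tlr2 to Tlr4, each with an adjusted p of 0.0667 in the exact test, which has fewer assignments there. Both calls were also lost when 10 of the 12 libraries were left out in turn (adjusted p of 0.06 to 0.1 in the exact test).

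**Figure D3:**
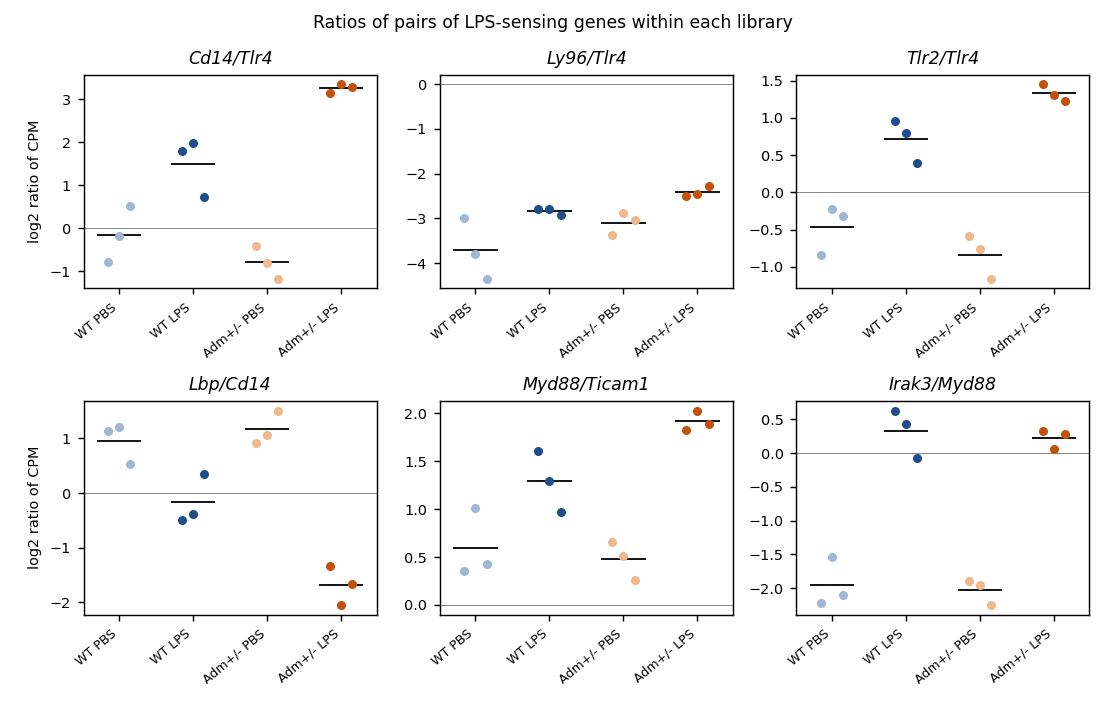
Log2 ratio of the CPM of a pair of genes within each library (vertical axes, a separate scale for each ratio), by group, with 1 point per mouse and a bar at the group mean. The Cd14 to Tlr4 ratio lies between 0.72 and 1.99 in WT LPS and between 3.15 and 3.35 in Adm+/- LPS, while Irak3 to Myd88 overlaps between those groups.

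Levels of different genes were compared as CPM per kb of exon. In WT PBS lungs Myd88 was highest at 9.31 CPM per kb, followed by Cd14 at 7.46, Lbp at 5.32 and Ticam1 at 5.18 CPM per kb, and each gene overlapped its neighbour in the order except at the bottom, where Ly96 at 1.19 stood clear of Ticam2 at 0.222 CPM per kb. The order in Adm+/- PBS lungs also ran from Myd88 at 7.84 to Ticam2 at 0.263 CPM per kb. Under LPS Cd14 led in both genotypes, at 41 CPM per kb in WT mice, where it overlapped Myd88 at 17.5, and at 132 CPM per kb in Adm+/- mice, where it was clear of Myd88 at 25.6. Irak3 moved from rank 8 to rank 3 in WT mice and from rank 9 to rank 3 in Adm+/- mice, at 16.2 and 21 CPM per kb. These are ranks of means, and the Irak3 libraries overlapped those of a neighbour in every group. In WT LPS they overlapped Myd88, Tlr2 and Lbp. Tlr4 stayed low, at 2.64 and 4.21 CPM per kb in WT PBS and WT LPS, and at 2.85 and 4.24 in Adm+/- PBS and Adm+/- LPS. In Adm+/- LPS lungs Tlr4 and Ly96, the 2 parts of the receptor, stood next to each other at 4.24 and 4.29 CPM per kb and overlapped.

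LPS-treated lungs also held more RNA of myeloid markers. Summed over 10 neutrophil markers, the level was 33.5 to 161 CPM in WT PBS and 1450 to 2500 CPM in WT LPS, and 32.1 to 52.3 CPM in Adm+/- PBS and 1480 to 1750 CPM in Adm+/- LPS, with 9 of 10 markers higher in WT and 10 of 10 in Adm+/- mice, where 10.5% and 12.8% of all genes tested were higher. Over 12 monocyte and macrophage markers the sum was 1050 to 1240 CPM in WT PBS, 1540 to 2230 CPM in WT LPS, 992 to 1230 CPM in Adm+/- PBS and 1560 to 2080 CPM in Adm+/- LPS, with 10 markers higher in WT mice, and 9 higher and 1 lower in Adm+/- mice, against the same shares of all genes that were higher and 12.2% that were lower in Adm+/- mice. Over 8 alveolar macrophage markers it was 111 to 139, 298 to 545, 95.2 to 122 and 285 to 345 CPM in the same order of groups. Of these 8, 4 were higher in WT and 5 in Adm+/- mice, beside the same shares of all genes. No marker of these 3 lists was at 0 in all libraries of a group. In bulk lung, more cells of a type and more RNA per cell cannot be told apart, and the part of these cells in the rise of the sensing genes was not tested.

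Between the LPS groups these 3 sums overlapped, while Cd14 did not. Lyz2 carries much of the monocyte and macrophage sum. Its mean over the 12 libraries was 1200 CPM, against 120 CPM for Csf1r, the next marker. The median log2 difference in LPS, Adm+/- minus WT, was −0.25 over the neutrophil markers. It was −0.42 over the monocyte and macrophage markers and −0.23 over the alveolar macrophage markers. The part of these cells in the Cd14 difference was not tested. The WT LPS lungs differed from the Adm+/- LPS lungs in other markers. Summed over 8 skeletal muscle markers they had 338 to 1120 CPM against 12.2 to 25.3 CPM, and over 8 squamous epithelium markers 24.6 to 2870 CPM against 4.31 to 39.4 CPM, with 7 of 7 and 3 of 6 tested markers lower in Adm+/- LPS, where 1.72% of all genes tested were lower, and no marker of either list at 0 in all libraries of an LPS group. The part of that RNA in the genotype differences was not tested. Over 8 liver markers, the tissue that makes most Lbp, the LPS sums were 14.1 to 71.4 CPM in WT and 17.5 to 26.3 CPM in Adm+/- mice, against 5.99 to 17.7 and 6.60 to 27.5 CPM in PBS. The median liver sum went from 8.01 to 35.5 CPM in WT and from 7.79 to 20.5 CPM in Adm+/- mice, and the part of liver RNA in the rise of Lbp was not tested.

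**Figure D4:**
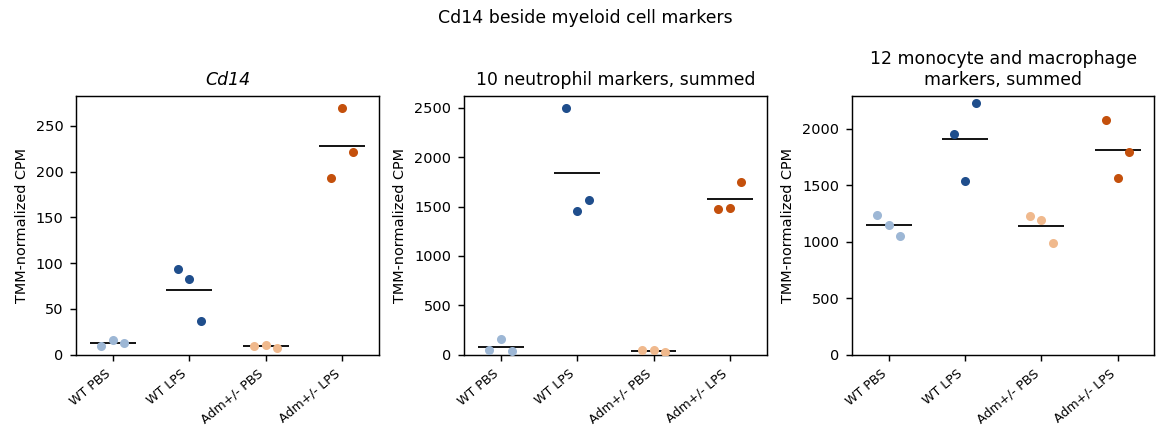
TMM-normalized CPM (vertical axes, linear and starting at 0) of Cd14, of 10 neutrophil markers summed and of 12 monocyte and macrophage markers summed, in each library by group, with 1 point per mouse and a bar at the group mean. Cd14 separates Adm+/- LPS (193 to 270 CPM) from WT LPS (36.8 to 94.1 CPM), while the neutrophil sums (1480 to 1750 and 1450 to 2500 CPM) and the monocyte and macrophage sums (1560 to 2080 and 1540 to 2230 CPM) overlap.

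Beyond the 10 genes, 82 others of the pathway were listed by role, of which 79 were tested. Tlr11, Bpi and Ifnb1 had at most 17, 4 and 0 counts in any library and were not tested. In WT mice 28 rose and 4 fell, where 17.6% of all genes tested changed in either direction, and in Adm+/- mice 42 rose and 6 fell, where 25.0% of all genes did. For the genotype difference in PBS, in LPS and in the LPS response, 0 of the 79 passed in edgeR, while 2, 22 and 12 of them had an unadjusted p below 0.05, against 2.17%, 14.3% and 7.85% of all genes tested. DESeq2 called 0, 7 and 1 of the 79 in these comparisons, and limma-voom 0, 2 and 0. Changes of the listed genes are given as log2 fold changes of LPS against PBS.

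At the receptor, of 9 partners and chaperones, 1 rose and 2 fell in each genotype, where 10.5% of all genes tested rose and 7.09% fell in WT mice, and 12.8% rose and 12.2% fell in Adm+/- mice. The number past the threshold in either direction was 0 in WT and 1 in Adm+/- mice with glmTreat, and in WT mice 1 without WT LPS replicate 9 and 1 in a fit of the 6 WT libraries. Unc93b1, the chaperone of the endosomal Toll-like receptors, had a log2 rise of 0.67 in WT mice (adjusted p = 0.00564 in edgeR), from 43.4 to 68.9 CPM, and a value of 0.41 in Adm+/- mice (adjusted p = 0.0348 in edgeR), under the fold threshold. Tril, an accessory protein of Tlr4, was lower with LPS, with log2 changes of −0.74 in WT (adjusted p = 0.0166 in edgeR) and −0.84 in Adm+/- mice (adjusted p = 0.00571 in edgeR). Scimp, a transmembrane adaptor for Toll-like receptors, rose on the log2 scale by 2.19 in Adm+/- mice (adjusted p = 0.00217 in edgeR), from 0.511 to 2.36 CPM, and had a value of 1.25 in WT mice (adjusted p = 0.0582 in edgeR). Of 9 other Toll-like receptors, 4 rose and 1 fell in WT mice, and 3 rose and 2 fell in Adm+/- mice, beside the same shares of all genes. The WT count in either direction was 3 with glmTreat and 2 in a fit of the 6 WT libraries. Tlr1 and Tlr6, which pair with Tlr2, rose on the log2 scale by 2.32 and 1.49 in WT and by 2.27 and 1.14 in Adm+/- mice (adjusted p between 0.000322 and 0.00277 in edgeR). Tlr5, the flagellin receptor, was lower with LPS in Adm+/- mice (−1.09, adjusted p = 0.00184 in edgeR), with 11.2 to 13.8 CPM in PBS and 5.38 to 6.03 CPM in LPS, and had a value of −0.23 in WT mice (adjusted p = 0.417 in edgeR).

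Of 15 kinases and ubiquitin ligases that act after Myd88, 0 passed in WT mice in edgeR, DESeq2 or limma-voom. Of these, 5 had an unadjusted p below 0.05 in edgeR, against 36.7% of all genes tested. In Adm+/- mice 3 rose, which were Irak2, Irak4 and Peli2, where 12.8% of all genes tested rose, and 0 passed there with glmTreat. In WT mice 2 passed without WT PBS replicate 3 and 2 without WT PBS replicate 4. The median log2 change of the 15 was 0.19 in WT and 0.26 in Adm+/- mice. Peli2, a ubiquitin ligase, rose on the log2 scale by 0.80 (adjusted p = 0.00119 in edgeR) and Irak4, the first kinase on Myd88, by 0.68 (adjusted p = 0.00605 in edgeR) in Adm+/- mice, and both had a log2 change of 0.40 in WT mice (adjusted p = 0.0516 and 0.0779 in edgeR). Of 8 genes listed as kinases and factors after Ticam1, 3 rose in WT and 6 in Adm+/- mice. The shares of all genes tested that rose were 10.5% and 12.8%. With glmTreat 1 of the 8 passed in each genotype. Each gene stands in 1 list only, whatever other route it takes part in. Ikbke, a kinase that activates interferon regulatory factors, rose on the log2 scale by 2.1 (adjusted p = 0.000169 in edgeR) and 2.53 (adjusted p = 5.91e-05 in edgeR). Irf5 rose in both, with log2 changes of 0.96 in WT mice (adjusted p = 0.00458 in edgeR) and 0.59 in Adm+/- mice (adjusted p = 0.0308 in edgeR). Ripk1 rose on the log2 scale by 0.80 in Adm+/- mice (adjusted p = 0.00163 in edgeR) and had a value of 0.35 in WT mice (adjusted p = 0.0946 in edgeR).

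Another 12 genes were listed as negative regulators, a role that was not tested here. Of these, 5 rose and 1 fell in WT mice, where 10.5% of all genes tested rose and 7.09% fell. In Adm+/- mice 6 rose and 2 fell, where 12.8% of all genes tested rose and 12.2% fell. In either direction 2 passed in a fit of the 6 WT libraries, and in Adm+/- mice 5 passed with glmTreat, 5 without Adm+/- PBS replicate 6 and 5 without Adm+/- LPS replicate 2. Zc3h12a, a nuclease that degrades cytokine mRNAs, had log2 rises of 1.74 in WT mice (adjusted p = 0.0023 in edgeR) and 3.03 in Adm+/- mice (adjusted p = 7.9e-05 in edgeR), and Pik3ap1, an adaptor to PI3-kinase, had log2 rises of 1.38 (adjusted p = 0.000843 in edgeR) and 1.72 (adjusted p = 0.000128 in edgeR). Those that fell were Tmed1 in WT mice, and Sigirr and Sarm1 in Adm+/- mice. Of 7 tested genes that bind, clear or respond to LPS outside the receptor, 5 rose in WT and 6 in Adm+/- mice, beside the same shares of all genes, with median log2 changes of 3.01 and 3.72. Aoah, the enzyme that removes acyl chains from LPS, rose on the log2 scale by 3.01 (adjusted p = 4.48e-05 in edgeR) and 3.00 (adjusted p = 4.02e-05 in edgeR), from 3.18 to 25.6 CPM in WT and from 3.24 to 26.0 CPM in Adm+/- mice. Ltf, the neutrophil granule protein lactoferrin, rose on the log2 scale by 4.19 (adjusted p = 8.98e-05 in edgeR) and 4.47 (adjusted p = 5.33e-05 in edgeR), beside the neutrophil sums given above.

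Target genes of both routes were among those that rose. Of 10 NF-kappa B target genes, 7 rose in WT and 10 in Adm+/- mice, where 10.5% and 12.8% of all genes tested rose, with median log2 changes of 2.88 and 4.66. Il1b, the gene of interleukin 1 beta, rose on the log2 scale by 2.87 (adjusted p = 0.00216 in edgeR) and 4.79 (adjusted p = 0.000105 in edgeR), with means of 39.9 and 78.1 CPM in the WT and Adm+/- LPS lungs. Ccl4 also rose in both, with log2 changes of 4.31 in WT mice (adjusted p = 0.00225 in edgeR) and 6.39 in Adm+/- mice (adjusted p = 0.000171 in edgeR), on few counts in PBS, where its means were 0.221 and 0.13 CPM against 4.53 and 10.8 CPM in LPS. The neutrophil chemokine Cxcl2 had at most 1 count in each Adm+/- PBS library and was at least 299-fold higher in Adm+/- LPS lungs, against a floor of 3 counts per library, with 30.3 to 47.6 CPM there and 2.19 to 15.4 CPM in WT LPS. With Cxcl2 at that bound the Adm+/- median remained 4.66. Of 9 tested targets of the interferon arm, 3 rose in WT and 7 in Adm+/- mice, beside the same shares of all genes, with median log2 changes of 1.25 and 2.87. The WT count was 1 with limma-voom, with glmTreat, without both PBS libraries that stood apart, and without WT PBS replicate 3 or 5 or WT LPS replicate 9 or 10. The Adm+/- count was 3 with glmTreat, without both PBS libraries that stood apart, and without Adm+/- PBS replicate 6 or 8 or Adm+/- LPS replicate 2. Ccl5 rose on the log2 scale by 2.79 (adjusted p = 0.00168 in edgeR) and 3.61 (adjusted p = 0.000185 in edgeR), and Cxcl10 by 3.69 (adjusted p = 0.0297 in edgeR) and 6.03 (adjusted p = 0.00185 in edgeR), with 13.7 to 102 CPM over the Adm+/- LPS lungs. Between the genotypes in LPS 0 of the 10 NF-kappa B targets passed in edgeR, but 4 did with DESeq2, 2 with limma-voom, and in edgeR 3 without WT PBS replicate 5, 3 without WT LPS replicate 9 and 1 without WT PBS replicate 3.

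**Figure D5:**
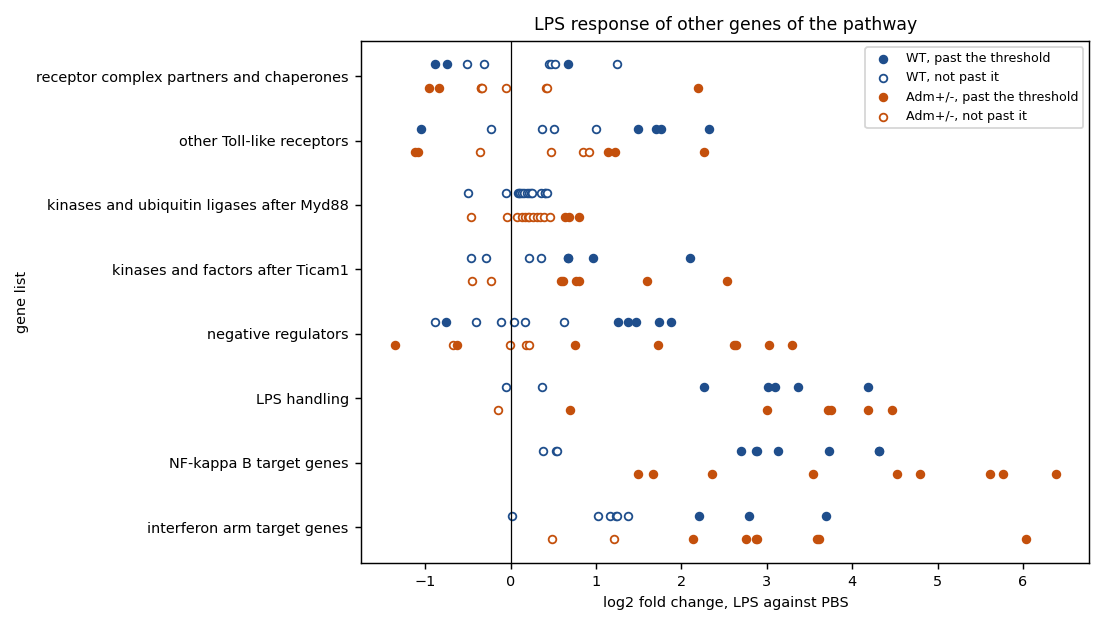
Fitted log2 fold change of LPS against PBS (horizontal axis) of the tested genes in 8 lists of other pathway genes (vertical axis) in WT and Adm+/- mice, 1 point per gene, filled where past the threshold. Cxcl2, whose Adm+/- PBS libraries are at the floor, is left out of the Adm+/- row. The 15 kinases and ligases after Myd88 stay below 1, while the medians of the NF-kappa B targets are 2.88 and 4.66.

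Genes whose log2 CPM over the 12 libraries was most like that of Tlr4, Cd14, Ly96 and Lbp are given as a description, since the points share the treatment and the libraries. For Tlr4 they were Eif1, Rock1 and Rb1cc1, with Pearson's r of 0.991, 0.990 and 0.987 and Spearman's rho of 0.930, 0.937 and 0.958, and each of them, like Tlr4, had its lowest library among the WT PBS lungs, at 94.1, 104 and 59.7 CPM. For Cd14 they were Cd82, Zc3h12a and Dll1 (r of 0.993, 0.989 and 0.988, rho of 0.986, 0.944 and 0.909). Like Cd14, each of these was higher in every Adm+/- LPS lung than in every WT LPS lung, with 93.5 to 105 CPM against 63.4 to 80.2 CPM for Cd82, 90.6 to 101 against 24.3 to 69.8 CPM for Zc3h12a, and 90.6 to 100 against 38 to 65.2 CPM for Dll1. For Ly96 they were Cldn12, Cd2ap and Rap1a (r of 0.988, 0.986 and 0.985, rho of 0.986, 0.958 and 0.972), and for Lbp they were C1ra, Klf9 and Steap4 (r of 0.995, 0.995 and 0.992, rho of 0.972, 0.965 and 0.944). Among the members themselves, Tlr4 and Ly96 were most like each other (r = 0.943), Cd14 was most like Myd88 (r = 0.979) and Lbp most like Irak3 (r = 0.984).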

How the data were processed

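Bulk RNA sequencing libraries of 12 mouse lungs were used; human libraries were not analysed here. The library kit was directional, and rRNA was depleted. Trim Galore, HISAT2 (genome mm10) and featureCounts (Gencode annotation) were the authors' tools for trimming, alignment and counting. The deposited values are whole-number counts per gene for 52550 genes, neither normalized nor filtered. The Gencode release and the strand option are not given in the sources used here. Positions, overlaps and exon lengths came from Gencode M21, which held 99.7% of the genes.

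Groups came from the labels. Analyses used R 4.3.3, edgeR 4.0.16, limma 3.58.1, DESeq2 1.42.0 and Python 3.11.15. Protein-coding genes (21950) were kept if they passed filterByExpr with the 4 groups (15885, 72.4%), scaled with TMM factors and tested in 1 edgeR quasi-likelihood fit with 1 coefficient per group and 8 residual degrees of freedom. The 5 contrasts were adjusted by Benjamini-Hochberg over all genes tested, with thresholds of 0.05 and an absolute log2 fold change of 0.5. SE is the log2 change divided by the root of F. Log2 CPM for ratios and likeness used a prior count of 2. Counts carry no molecular identifiers, so floors (3 counts) cover counting error only. Of the 12 replicate pairs 0 were identical, and each differed beyond counting noise (chi-square of at least 10.1 per degree of freedom). The scripts were tested on simulated data.

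The members, lists, markers and tests were chosen with earlier results of these data known. Named are the 10 members, Adm, for each pathway list the genes with the 2 smallest p per genotype among those past the threshold and any not tested, and the 3 genes most like Tlr4, Cd14, Ly96 and Lbp. The other genes of the lists that are named, namely Irak2, Tmed1, Sigirr and Sarm1, were chosen after their values were seen. Alternatives were RLE size factors, DESeq2, limma-voom, no filter, all annotated genes, glmTreat, no fold threshold, a prior count of 0.5, each library left out, both PBS libraries that stood apart left out, and fits of 6 libraries.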

Additional observations from a re-analysis of the deposited data

Results flagged for a closer look

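In an exact permutation test on the difference in LPS response, 2 of the 6 ratios between members had an adjusted p below 0.05. These were Cd14 to Tlr4, with a log2 difference of 2.41 (Adm+/- minus WT, exact permutation p = 0.01, adjusted p = 0.045), and Tlr2 to Tlr4, with 0.99 (exact permutation p = 0.015, adjusted p = 0.045). Both ratios were higher in all 3 Adm+/- LPS lungs than in all 3 WT LPS lungs. The test permutes genotype within treatment, so it takes genotype to have no effect in either treatment. It does not test the response alone. Both calls were lost without the 2 PBS libraries that stood apart and when 10 of the 12 libraries were left out in turn, with adjusted p of 0.06 to 0.1 in the exact permutation test, which has fewer assignments there. Single libraries were not tested as outliers within their groups of 3.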

How the results depend on the processing

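Of the alternatives, RLE size factors, limma-voom, no filter on low counts, all annotated genes and no fold threshold left every count of members past the threshold within 1.5 times its value. In WT mice 4 of the 10 genes rose instead of 7 when edgeR's glmTreat was used or only the 6 WT libraries were fitted, since Ly96, Myd88 and Tirap did not pass there, and 5 to 8 did when single libraries were left out. In Adm+/- mice 6 to 8 did. Between the genotypes in LPS, DESeq2 called 2 genes and a fit of the 6 LPS libraries 0, and leaving out single libraries gave 0 to 1. For the interaction DESeq2 called 1, and leaving out single libraries gave 0 to 1. For the ratios, the count that differed between genotypes fell from 2 to 0 without the 2 PBS libraries that stood apart. It was 0 to 2 without single libraries, and 0 for 10 of those 12. All of these fits have fewer assignments, and the part of that in the lost calls was not tested. The values without single libraries stayed between 2.02 and 2.72 for Cd14 to Tlr4 and between 0.83 and 1.18 for Tlr2 to Tlr4. Values near 0 changed sign without the 2 libraries that stood apart, where the interaction was 0.02 for Tlr4, 0.05 for Ly96 and −0.01 for Ticam1, the PBS difference between genotypes −0.02 for Tlr4 and −0.11 for Tirap, and the Irak3 to Myd88 difference 0.12. With single libraries left out, the interaction covered −0.26 to 0.15 for Tlr4, −0.73 to 0.28 for Ly96 and −0.04 to 0.09 for Ticam1. The PBS difference covered −0.14 to 0.27 for Tlr4, −0.50 to 0.00 for Lbp, −0.48 to 0.07 for Tlr2, −0.64 to 0.13 for Irak3, −0.08 to 0.54 for Ticam2 and −0.16 to 0.19 for Tirap. The LPS difference covered −0.08 to 0.13 for Tlr4, the Ly96 to Tlr4 difference −0.55 to 0.13 and the Irak3 to Myd88 difference −0.23 to 0.13. Of the lists, the number past the threshold in WT and in Adm+/- mice over all alternatives was 0 to 4 and 1 to 5 of the partners and chaperones, 2 to 5 and 4 to 7 of the other Toll-like receptors, 0 to 2 and 0 to 5 of the genes after Myd88, 1 to 3 and 1 to 6 of those after Ticam1, 2 to 8 and 5 to 9 of the negative regulators, 4 to 6 and 5 to 6 of those that handle LPS, 5 to 8 and 9 to 10 of the NF-kappa B targets, and 1 to 4 and 3 to 8 of the interferon arm targets. Between the genotypes in LPS, where 0 genes of each list passed, leaving out single libraries gave 0 to 3 of the NF-kappa B targets, 0 to 2 of the other Toll-like receptors (1 without WT PBS replicate 5, 2 without WT LPS replicate 10) and 0 to 2 of the negative regulators (2 without WT LPS replicate 9). The causes were not tested. No paired analysis was possible because the groups compared share no replicate numbers. Ly96 and Ticam2 had 6 to 129 and 10 to 102 counts per library. The part of depth in their spread was not tested.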
